A study of Mus musculus with 6 samples.

Results

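Retinal ganglion cells (RGCs) of Adult mice were compared with those of mice at embryonic day 18 (E18), the full span from cells that still extend axons to mature cells. The comparison used 4 of the 6 libraries of the series, 2 of E18 and 2 of Adult, and the 2 libraries of postnatal day 5 (P5) served to follow genes that left the E18 level and came back. All mice were wild type, of the strain given as C57/6NCrl, and the Adult mice were 8 weeks of age. Cells of every age were captured on antibody to Thy1, a surface antigen of RGCs, after other antibodies had taken out macrophages; 1 of the 2 descriptions of the isolation also names the removal of amacrine cells. Whether libraries came from separate or pooled animals is not given, so the p-values rest on the spread among libraries, which may be technical. Isoform levels were summed per gene symbol, and 14390 of 17027 symbols reached a mean of 1 FPKM over the 6 libraries and were tested. FPKM are mapped fragments scaled by transcript length and by the total of the library, a level per length.

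RGCs are the projection neurons of the retina, and their axons form the optic nerve. Around birth they extend axons through growth cones, which need a dynamic actin and tubulin skeleton, guidance receptors and a high output of protein and membrane lipid. After reaching the brain, the cells build synapses and mature spiking, and they lose most of their ability to regrow an axon. Bulk libraries of captured cells also hold RNA of any other retinal cell that comes along, among them rods and cones, bipolar and amacrine cells, and Müller glia.

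The 2 libraries of an age were close to each other (Pearson r over genes of log2 levels, 0.978 at E18, 0.975 at P5 and 0.941 in Adult), and Adult and E18 libraries were further apart (0.719 to 0.742). Protein-coding genes held 70.8% and 71.2% of all FPKM at E18 and 38.0% and 33.7% in Adult, and the scaling between libraries bears on every level. The median log2 difference of all tested genes, Adult minus E18 on the scale of log2(FPKM + 1), was -0.11. It moved to -0.68 when each library was rescaled to the same total (TPM), to 0.20 when rescaled to the same sum over protein-coding genes, and to -0.07 with quantile normalization. List medians are therefore given relative to that of all tested genes. Depth is unknown, since FPKM carry no counts.

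The cell identity given by the labels was matched by its markers at E18, while Adult libraries held markers of several cell types. The 23 tested RGC markers had a median level of 125 and 164 FPKM at E18 and of 22.2 and 13.0 FPKM in Adult replicates 1 and 2. Their summed level was 6741 and 7623 FPKM at E18 and 997 and 779 FPKM in Adult. Rbpms, an RNA-binding protein that marks nearly all RGCs, had 159.5 and 175 FPKM at E18 and 15.9 and 7.45 FPKM in Adult, and Pou4f1, a transcription factor of RGC identity, had 249 and 279 FPKM at E18 and 14.7 and 6.28 FPKM in Adult. Thy1 itself, the antigen of the capture, had 161 and 241 FPKM at E18 and 138 and 129 FPKM in Adult (log2 difference -0.56, adjusted p = 0.0410). Its call was lost when any library other than E18 replicate 1 was left out, with log2 differences from -0.61 to -0.27, and it was also lost with equal protein-coding sums (-0.20) and quantile normalization (-0.07). Rbpms was 14.3-fold lower in Adult. In bulk libraries, fewer cells of a type and less RNA per cell cannot be told apart. Rbpms and Thy1 were chosen from the marker list after their values were seen.

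Markers of other retinal cells were higher in Adult, and all 17 rod, 10 cone and 13 bipolar markers that were tested rose. The medians of these lists were at most 0.516 FPKM in each E18 and P5 library. Many members thus reached the mean of 1 FPKM only through Adult, so the filter in part fixed these counts. Of 11 cone and 15 bipolar markers with a listed level, 10 and 13 reached it. The 17 rod markers summed to 7.27 and 6.45 FPKM at E18 and to 6422 and 799.9 FPKM in Adult, an uneven pair in which replicate 1 was the higher. Sums of the 10 cone markers (8.70 and 2.23 FPKM at E18, 135 and 122 in Adult) and of the 13 bipolar markers (23.1 and 10.9, then 193 and 184) were even between the Adult libraries. The 16 amacrine markers went from 832 and 786 FPKM to 1527 and 1710.0 FPKM, and most of the E18 sum was Calb2 and Pax6, which RGCs also express. The 15 markers of Müller glia and astrocytes went from 290.5 and 217 FPKM to 1603 and 1922 FPKM. Among these markers were the blue cone opsin Opn1sw, with 1.19 and 0.277 FPKM at E18 and 36.0 and 30.8 FPKM in Adult, the bipolar cell gene Pcp2, with 0.192 and 0.233 FPKM at E18 and 19.4 and 16.7 FPKM in Adult, the amacrine glycine transporter Slc6a9, with 2.95 and 3.56 FPKM at E18 and 226 and 167 FPKM in Adult, and the glial enzyme glutamine synthetase, Glul, with 125 and 120.3 FPKM at E18 and 616 and 702 FPKM in Adult. Of the smaller lists, all 3 endothelial markers and 1 of 2 pigment epithelium markers rose. Of 7 horizontal cell markers 2 rose and 3 fell, and of 5 oligodendrocyte markers 1 rose and 2 fell. These counts of horizontal cell and oligodendrocyte markers lay near the shares of all tested genes (25.3% higher and 34.4% lower). They are not read as particular to those lists. The erythrocyte gene Hbb-bs had 12.1 and 0.289 FPKM at E18 and 0.000100 and 0.0903 FPKM in Adult and was not called. Of 16 markers of microglia and macrophages, 2 were matched in the table and neither reached the mean of 1 FPKM. These sums differ between the same libraries as every result that follows, and their part in each was not tested.

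**Figure D1:**
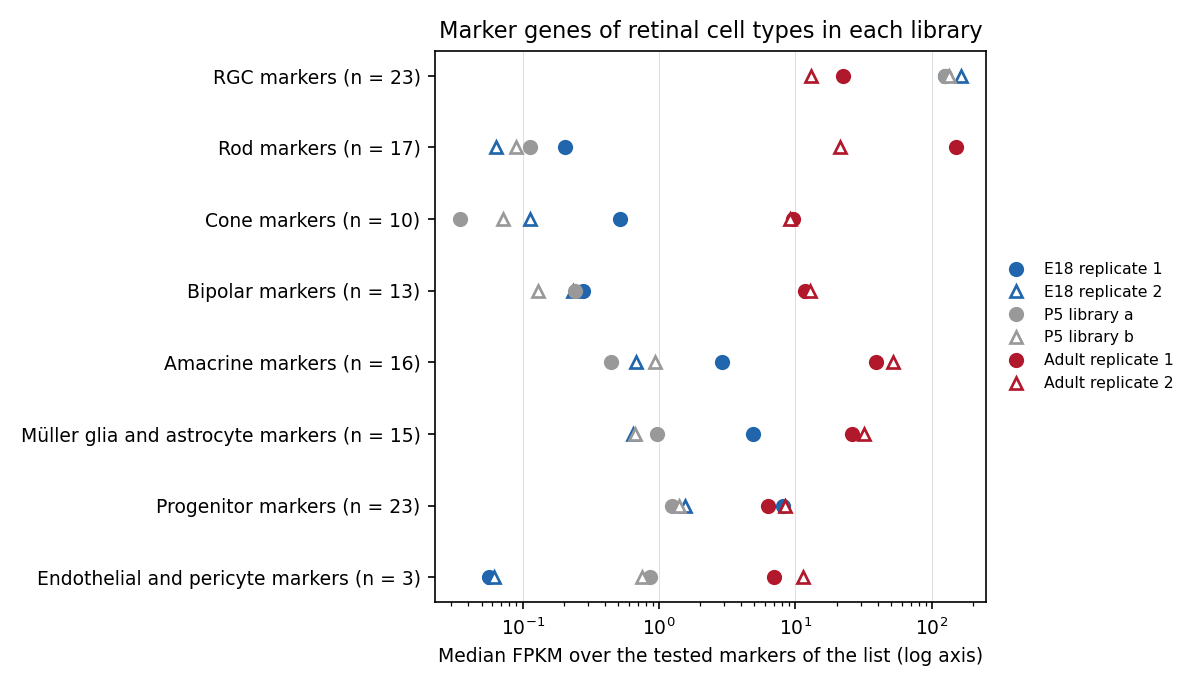
Median level of each marker list in each library, in FPKM on a log axis; circles and triangles are the 2 libraries of an age, and n is the number of tested markers. RGC markers sit at 13.0 and 22.2 FPKM in Adult and far to the right at E18 (125 and 164), and rod markers differ between the Adult libraries (149 and 21.1).

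Across all genes, 8588 differed between Adult and E18 (59.7% of those tested; limma, Benjamini-Hochberg adjusted p under 0.05). Of these, 3638 were higher in Adult (25.3%) and 4950 lower (34.4%), and the Adult and E18 values of every called gene did not overlap. Among all 14390 tested genes, both Adult values lay above both E18 values in 5337 and below both in 6766. Lack of overlap was thus common and is no further support for the calls. The split depended on the scaling, with 2047 higher (14.2%) and 8138 lower (56.6%) as TPM and 5385 higher (37.4%) and 3340 lower (23.2%) with equal protein-coding sums. Called genes that were higher in Adult had a median level of 4.12 FPKM at E18 and 13.5 FPKM in Adult, and 899 of them had an E18 mean under 1 FPKM. Those that were lower had medians of 23.3 and 10.5 FPKM, and 633 had an Adult mean under 1 FPKM. A log2 difference of at least 2 was reached by 841 genes upward and 617 downward, and one of at least 4 by 124 and 66. Of the 5802 genes not called, 4715 had a 95% interval that lay between -1 and 1.

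The P5 libraries show where along the span the changes lay. Both P5 libraries lay between the E18 and Adult means for 1640 of the 3638 genes called higher and for 2382 of the 4950 called lower. Gene types also differed. Of 674 tested processed pseudogenes, copies of mRNA without introns, 320 were lower and 61 higher in Adult (median -0.55 as deposited). Of 135 small nucleolar RNA genes, which guide the modification of ribosomal RNA and mostly lack a polyA tail, 51 were higher and 6 lower. Pseudogenes share reads with their parent genes, so their levels are uncertain.

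The largest fall was that of Cd24a, which encodes a surface glycoprotein of immature neurons (chromosome 10, 43578284 to 43584265, plus strand, GRCm38) and had 859.9 and 1041 FPKM at E18 and 2.49 and 2.94 FPKM in Adult (350.4-fold lower, log2 difference -8.00, SE 0.13, adjusted p = 2.67e-06). Tubb2b, a beta-tubulin isotype of young neurons (chromosome 13, 34126748 to 34130466, minus strand), had 1244 and 1573 FPKM at E18 and 7.31 and 9.96 FPKM in Adult (log2 difference -7.20, SE 0.17, adjusted p = 6.90e-06). For both genes the Adult libraries lay far below all others. At P5 the levels were still 418 and 447 FPKM for Cd24a and 1053 and 1073 FPKM for Tubb2b, so most of each fall on the log2 scale lay after P5. Gap43, a phosphoprotein of the growth cone membrane, had 1322 and 1529 FPKM at E18 and 33.6 and 35.7 FPKM in Adult (log2 difference -5.32). Sox11, a transcription factor of young neurons, had 125 and 128 FPKM at E18 and 0.625 and 0.910 FPKM in Adult and 32.7 and 41.8 FPKM at P5, so its Adult level was 164-fold below that of E18. Nnat, the imprinted gene of neuronatin, had 1317 and 1178 FPKM at E18 and 15.6 and 13.4 FPKM in Adult. Gap43 and Nnat were 41.2-fold and 86.0-fold lower, and the Adult libraries of each lay within 25% of one another.

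Other genes among the 15 largest falls included secreted signals, transcription factors and cytoskeletal proteins. Mstn, which encodes the growth inhibitor myostatin, had 104.8 and 136 FPKM at E18 and 0.632 and 0.291 FPKM in Adult. Islr2, a membrane protein of the immunoglobulin family in developing axons, had 423 and 494 FPKM at E18 and 4.12 and 2.45 FPKM in Adult. Igfbpl1, an insulin-like growth factor binding protein, had 43.3 and 46.3 FPKM at E18 and 0.407 and 0.169 FPKM in Adult, and it was already at 10.2 and 13.6 FPKM at P5. The homeobox genes Isl2 and Irx2 had 140.3 and 180.3 FPKM at E18 and 4.53 and 1.60 FPKM in Adult, and 80.1 and 115 FPKM at E18 and 2.73 and 1.11 FPKM in Adult, respectively. In both, Adult replicate 2 was the lower by over 2-fold. Dcx, the microtubule protein doublecortin of migrating and young neurons, had 80.9 and 83.6 FPKM at E18 and 1.26 and 2.67 FPKM in Adult, and Dpysl3, a collapsin response mediator protein, had 863 and 1011 FPKM at E18 and 25.5 and 16.7 FPKM in Adult. Kctd12, Tes and Serf1 completed the 15, with log2 differences of -6.11, -5.22 and -4.82.

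**Figure D2:**
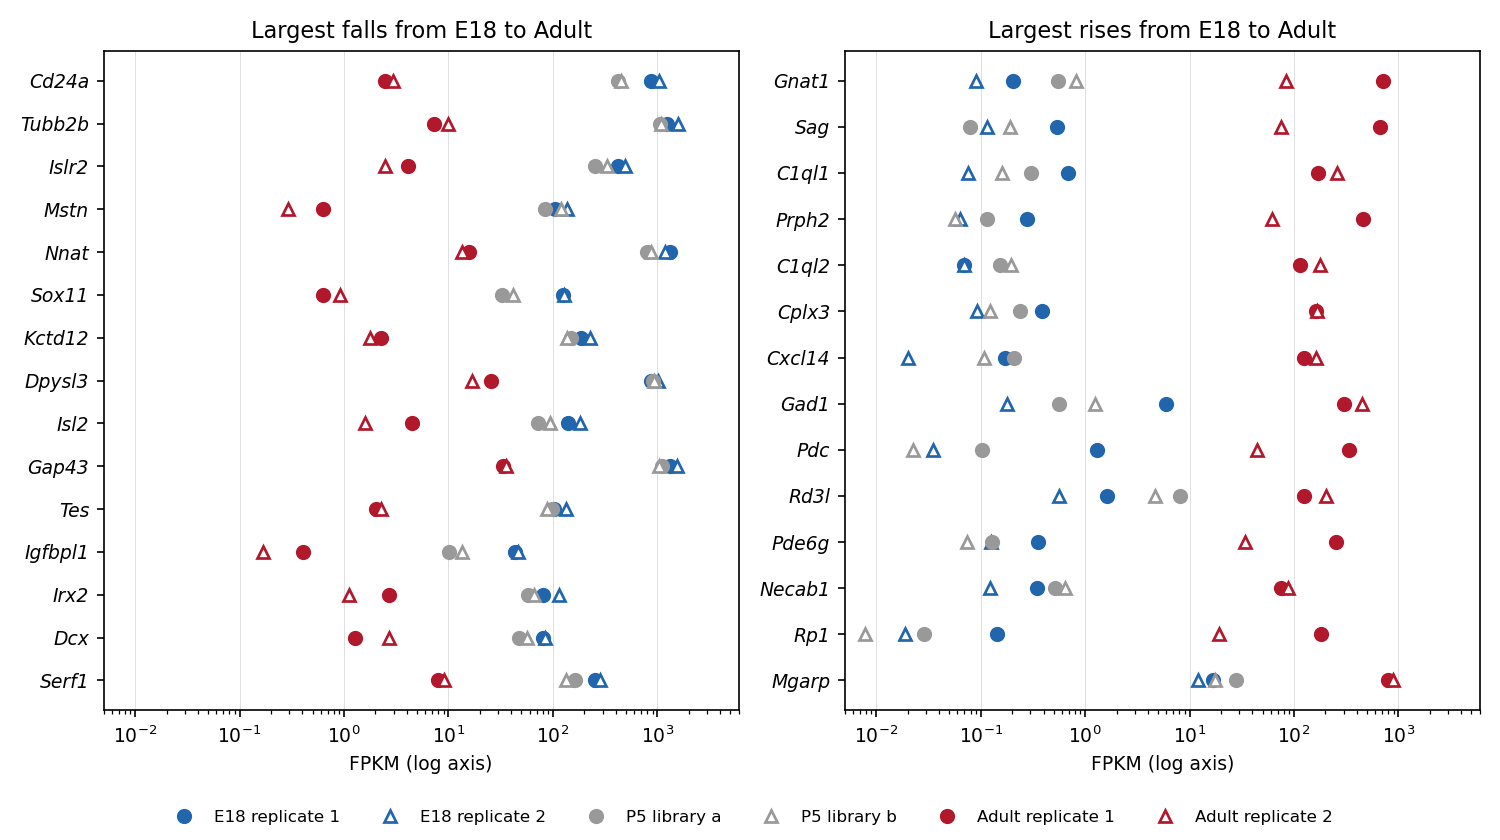
Levels of the 15 largest falls (left) and of 14 of the 15 largest rises (right) between E18 and Adult in each of the 6 libraries, in FPKM on a log axis. No E18 point overlaps an Adult point, and for Gnat1, Sag, Prph2, Pdc, Pde6g and Rp1 the Adult libraries lie far apart.

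The largest rises divided by how alike the Adult libraries were. The rod transducin Gnat1 (chromosome 9, 107674474 to 107679712, minus strand) had a log2 difference of 7.75 (SE 0.88, adjusted p = 0.000546). Gnat1, the rod arrestin Sag and the phosphodiesterase subunit Pde6g had 709.7 and 84.5, 659.6 and 75.0 and 254 and 34.3 FPKM in Adult, each with replicate 1 much the higher, and at most 0.540 FPKM at E18. The order of the Adult libraries in these genes was that of the rod marker sums. The genes are members of that list, so the sums are no independent comparison for them. In contrast, Cplx3, a complexin of ribbon and amacrine synapses (chromosome 9, 57599992 to 57606281, minus strand), had 0.387 and 0.0929 FPKM at E18 and 161 and 166 FPKM in Adult (log2 difference 7.06, SE 0.17, adjusted p = 6.90e-06). The complement-like synaptic proteins C1ql1 and C1ql2 had 168 and 258 FPKM and 115 and 179 FPKM in Adult, with at most 0.682 FPKM at E18. Gad1, which makes the transmitter GABA, had 5.97 and 0.180 FPKM at E18 and 298 and 449.7 FPKM in Adult. The E18 replicates of Gad1 were far apart, and replicate 1 was the higher. The chemokine gene Cxcl14 had 0.171 and 0.0203 FPKM at E18 and 124 and 161 FPKM in Adult.

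Genes whose Adult libraries lay within 25% of each other made up 2251 of the 3638 called higher and 3555 of the 4950 called lower. The largest even rises held genes of several retinal cell types. Mgarp, a mitochondrial protein, had 16.9 and 12.1 FPKM at E18 and 796 and 884 FPKM in Adult. Rlbp1 and Apoe, genes of Müller glia for retinoid binding and lipid transport, had 89.3 and 91.1 FPKM and 180.0 and 211 FPKM in Adult, and 1.15 and 0.649 FPKM and 4.91 and 2.27 FPKM at E18. Aqp4, the water channel of glial endfeet, had 0.0757 and 0.0553 FPKM at E18 and 19.9 and 24.8 FPKM in Adult. Tfap2c, a transcription factor of amacrine cells, had 0.0898 and 0.0216 FPKM at E18 and 30.9 and 33.5 FPKM in Adult. Necab1, a neuronal calcium-binding protein, had 0.343 and 0.122 FPKM at E18 and 74.3 and 87.8 FPKM in Adult. Faim2, an inhibitor of death receptor signaling in neurons, had 0.874 and 1.38 FPKM at E18 and 59.3 and 71.7 FPKM in Adult, and Cpne6, a calcium-dependent membrane-binding protein of neurons, had 0.348 and 0.452 FPKM at E18 and 36.8 and 45.5 FPKM in Adult. Tmem215 and Mreg had log2 differences of 4.48 and 4.47.

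Promoter windows of 5 genes are shown, 3 for a motif that was more frequent among the large rises than among all tested genes, and 1 each as an example of a clock gene and of a large fall. Windows ran from 250 bases before to 50 after the first listed start site of a gene (RefSeq, GRCm38.p6), and 8999 of the 14390 tested genes matched one by symbol. In the first 3, all of genes that rose, capitals mark TAATCC on either strand, the core bound by the photoreceptor homeobox factor Crx. In Per3, a clock gene that rose, they mark TTATGNAA on either strand, a form of the D-box bound by Dbp and Nfil3. In Sox11, which fell, they mark GGGCGG on either strand, the GC box, which most tested genes held.
Sag (chr1:87803430-87803729, plus strand): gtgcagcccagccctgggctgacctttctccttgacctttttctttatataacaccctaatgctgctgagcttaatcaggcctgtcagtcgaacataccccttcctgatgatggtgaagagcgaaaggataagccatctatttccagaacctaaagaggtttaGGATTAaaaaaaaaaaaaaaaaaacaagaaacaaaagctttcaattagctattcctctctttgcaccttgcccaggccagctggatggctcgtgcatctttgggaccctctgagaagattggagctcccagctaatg
Gad1 (chr2:70561879-70562178, plus strand): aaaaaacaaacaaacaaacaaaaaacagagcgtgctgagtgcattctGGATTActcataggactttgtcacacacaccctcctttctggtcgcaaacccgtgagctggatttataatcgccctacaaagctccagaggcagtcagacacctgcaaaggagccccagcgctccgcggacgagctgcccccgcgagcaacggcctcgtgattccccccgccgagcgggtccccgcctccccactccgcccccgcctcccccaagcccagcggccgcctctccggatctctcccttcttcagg
Apoe (chr7:19699139-19699438, minus strand): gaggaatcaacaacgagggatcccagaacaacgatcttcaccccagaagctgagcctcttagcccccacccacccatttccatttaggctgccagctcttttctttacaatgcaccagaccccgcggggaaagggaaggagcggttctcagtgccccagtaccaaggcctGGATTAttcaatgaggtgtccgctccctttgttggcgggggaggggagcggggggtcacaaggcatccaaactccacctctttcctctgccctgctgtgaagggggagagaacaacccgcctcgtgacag
Per3 (chr4:151044616-151044915, minus strand): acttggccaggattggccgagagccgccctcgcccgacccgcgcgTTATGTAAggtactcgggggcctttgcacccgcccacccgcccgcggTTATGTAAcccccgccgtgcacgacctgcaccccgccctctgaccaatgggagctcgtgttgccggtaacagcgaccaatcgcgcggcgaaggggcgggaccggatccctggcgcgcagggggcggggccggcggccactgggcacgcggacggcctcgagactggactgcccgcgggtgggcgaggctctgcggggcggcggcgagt
Sox11 (chr12:27342669-27342968, minus strand): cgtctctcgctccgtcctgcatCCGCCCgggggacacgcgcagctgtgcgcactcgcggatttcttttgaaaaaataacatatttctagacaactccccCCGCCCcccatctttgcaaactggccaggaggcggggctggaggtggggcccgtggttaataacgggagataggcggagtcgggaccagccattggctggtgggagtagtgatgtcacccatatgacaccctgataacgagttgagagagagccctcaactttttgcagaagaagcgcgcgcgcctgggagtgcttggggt

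The motifs differed in how common they were among genes with large changes. TAATCC was in 19 of the 78 windows of genes higher in Adult by a log2 of at least 4 (24.4%), in 2 of 38 of those lower by as much (5.26%), in 5.49% of those of all tested genes and in 7.16% of all 27025 windows of this length. GGGCGG was in 42.3% of the first set, 71.0% of the second and 35.9% of all windows. Among all tested genes it was in 66.5% of windows, so the second set lay near them and the first set below. The median ratio of observed to expected CpG was 0.402 in the first set, 0.697 in the second and 0.779 in all tested genes. TTATGNAA was in 3.52% of all windows, and the window of Per3 held it at 2 places, while those of Dbp, Nfil3, Bhlhe41 and Csnk1e held none. Over all called genes the shares lay closer together, with TAATCC in 6.91% of those higher and 4.75% of those lower. A match is only a stretch of letters, and binding was not measured.

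**Figure D3:**
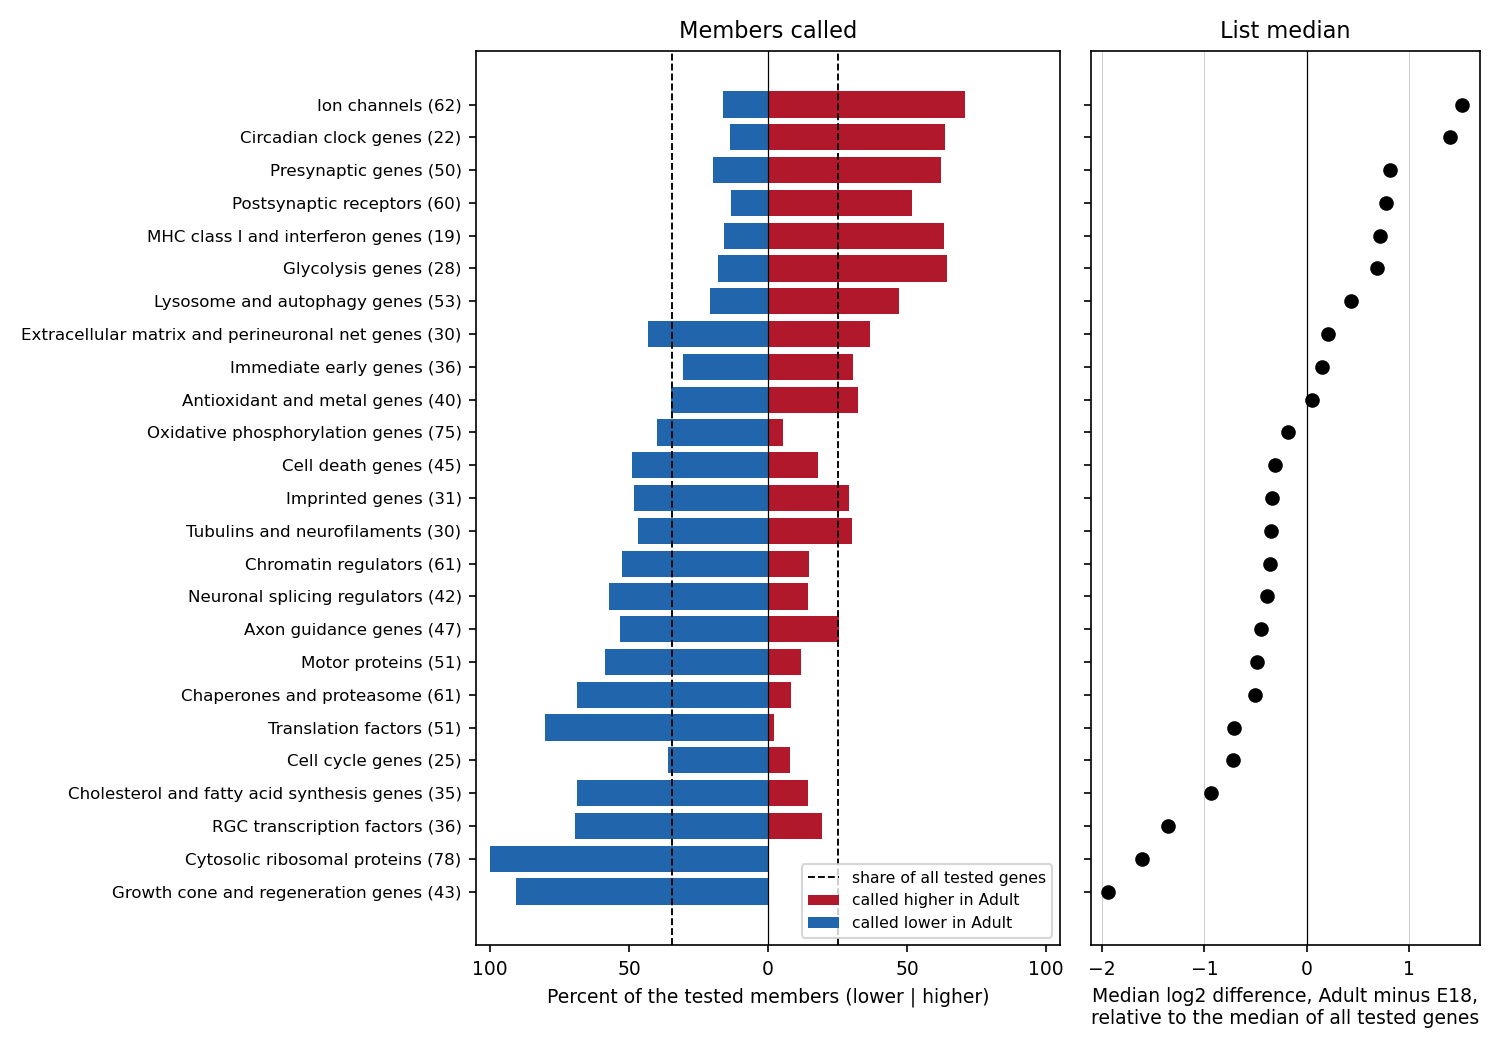
Left, percent of the tested members of each gene list called higher (right of 0) or lower (left of 0) in Adult, with dashed lines at the shares of all tested genes (25.3% and 34.4%); right, the median log2 difference of the list relative to that of all tested genes. Numbers after the names are tested members; ion channels and clock genes have the highest medians, growth cone and ribosomal protein genes the lowest.

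Transcription factors that set RGC identity were lower in Adult for the most part. Of 36 tested, 25 fell and 7 rose, with a median of -1.36 relative to all genes. Isl1, a homeobox gene needed for RGC differentiation, had 238 and 245 FPKM at E18 and 9.18 and 8.52 FPKM in Adult (log2 difference -4.62, SE 0.11, adjusted p = 7.19e-06). Its level at P5 was 115 and 136 FPKM, between the other ages. Sox4, a partner of Sox11 in young neurons, had 287 and 304 FPKM at E18 and 9.49 and 11.2 FPKM in Adult, and Ebf1, a factor of the Collier/Olf/EBF family, had 100.6 and 97.2 FPKM at E18 and 12.4 and 9.60 FPKM in Adult. Klf9, a repressor of axon growth and a target of thyroid hormone, was chosen after its values were seen and rose, with 3.41 and 2.36 FPKM at E18 and 38.3 and 39.6 FPKM in Adult (log2 difference 3.37). The Adult and E18 values of these 4 genes did not overlap, as in every called gene.

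Markers of RGC types did not move in one direction, and neither did all tested genes (25.3% higher and 34.4% lower, and 14.2% and 56.6% as TPM). Of 28 tested, 10 rose and 11 fell (9 and 15 as TPM; median -0.32 relative to all genes, and 0.01 without E18 replicate 1). The neuropeptide genes Gal and Cck went in opposite directions, with 19.6 and 20.3 FPKM at E18 and 0.302 and 0.209 FPKM in Adult for galanin and 0.0336 and 0.000210 FPKM at E18 and 16.4 and 17.0 FPKM in Adult for cholecystokinin. Foxp2, a factor of one family of RGC types, had 12.6 and 13.3 FPKM at E18 and 1.14 and 0.687 FPKM in Adult, and Neurod2 had 0.559 and 0.384 FPKM at E18 and 9.85 and 8.86 FPKM in Adult. Cartpt, the peptide of direction-selective RGCs, had 10.6 and 17.7 FPKM at E18 and 144 and 109 FPKM in Adult and rose by 3.10 on the log2 scale. Calb2, the calcium buffer calretinin of RGCs and amacrine cells, had 515 and 518 FPKM at E18 and 253 and 156 FPKM in Adult. It fell while the amacrine markers as a list rose, with 14 higher and 1 lower of 16.

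Genes of growth cones and regeneration were lower in Adult for the most part. Of 43 tested, 39 fell and 0 rose, with a median of -1.94 relative to all genes (-2.06 as TPM; 2 rose with equal protein-coding sums and 1 without Adult replicate 2). The list shares Gap43, Sox11 and Stmn2 with the RGC markers. Tmsb10, which binds actin monomers, had 1212 and 1108 FPKM at E18 and 71.0 and 69.1 FPKM in Adult (log2 difference -4.03, SE 0.09, adjusted p = 6.90e-06). Actb, cytoplasmic beta-actin and often used as a constant reference, had 2483 and 2565 FPKM at E18 and 486 and 548 FPKM in Adult, a 4.88-fold difference. Stmn2, a microtubule-destabilizing protein of growth cones, had 603 and 546 FPKM at E18 and 32.0 and 36.4 FPKM in Adult. The 4 members not called were Atf3, Igf1r, Rab13 and Stat3, named after their values were seen. Igf1r, the receptor of insulin-like growth factor 1, had 18.1 and 15.7 FPKM at E18 and 20.1 and 19.9 FPKM in Adult and 6.70 and 9.82 FPKM at P5.

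Tubulin and neurofilament genes moved in both directions, as did all tested genes. Of those, 34.4% fell and 25.3% rose, and as TPM 56.6% and 14.2%. Of 30 tubulin, neurofilament and microtubule protein genes, 14 fell and 9 rose (median -0.35 relative to all genes; 18 and 7 as TPM). Tuba1a, the main alpha-tubulin of young neurons, had 3951 and 4535 FPKM at E18 and 376 and 444 FPKM in Adult, and Tubb5 had 1737 and 1941 FPKM at E18 and 142 and 139 FPKM in Adult. Stmn1, which binds free tubulin, had 1848 and 2093 FPKM at E18 and 159.9 and 186 FPKM in Adult. In the other direction, Tuba4a, an alpha-tubulin isotype of mature tissue, had 5.75 and 6.24 FPKM at E18 and 64.8 and 64.1 FPKM in Adult (log2 difference 3.23). The neurofilaments also split, with the light chain Nefl at 656 and 834 FPKM at E18 and 125 and 49.4 FPKM in Adult and the heavy chain Nefh at 3.19 and 4.05 FPKM at E18 and 12.7 and 11.7 FPKM in Adult. Tuba4a, Nefl and Nefh were chosen after their values were seen. Tubulin isotypes have similar sequences, and how the authors' counting divided their reads was not examined.

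More guidance genes fell than rose. Of 47 ligands, receptors and adhesion molecules, 25 fell and 12 rose (median -0.45 relative to all genes), and as TPM 28 fell and 8 rose. Of all tested genes, 34.4% fell and 25.3% rose, and as TPM 56.6% and 14.2%. The TPM counts lay near those shares and are not read as particular to the list. The adhesion molecule L1cam had 138 and 158 FPKM at E18 and 18.3 and 20.5 FPKM in Adult, and Nrp1, the semaphorin coreceptor neuropilin 1, had 36.4 and 42.8 FPKM at E18 and 4.29 and 3.82 FPKM in Adult. Plxna3, a semaphorin receptor, had 58.5 and 67.7 FPKM at E18 and 10.6 and 9.21 FPKM in Adult. Nrcam, an adhesion molecule of the same family, had 127 and 159.6 FPKM at E18 and 59.9 and 82.7 FPKM in Adult. Unc5d, a netrin receptor, was higher in Adult, with 0.880 and 0.756 FPKM at E18 and 14.7 and 18.5 FPKM in Adult (log2 difference 3.27, SE 0.17, adjusted p = 4.08e-05). Levels of L1cam, Nrp1 and Nrcam at P5 (128 and 128, 35.9 and 42.8 and 139.7 and 130.5 FPKM) were still near those of E18.

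Among the lists of gene functions, ion channels and pumps had the highest median. Of 62 tested, 44 rose and 10 fell (median 1.52 relative to all genes; 39 and 16 as TPM). Within calcium channel beta subunits, Cacnb2 rose and Cacnb3 fell, with 0.937 and 0.894 FPKM at E18 and 74.2 and 51.1 FPKM in Adult for Cacnb2 and 119 and 131 FPKM at E18 and 26.0 and 25.9 FPKM in Adult for Cacnb3. Kcna2, a potassium channel of the axon, had 4.33 and 4.397 FPKM at E18 and 29.7 and 30.9 FPKM in Adult. Scn9a, a sodium channel of sensory neurons, fell, with 25.9 and 30.7 FPKM at E18 and 1.17 and 1.04 FPKM in Adult. The sodium pump subunit Atp1b1 had 46.7 and 52.4 FPKM at E18 and 273 and 302 FPKM in Adult. On the log2 scale Atp1b1 had most of its rise by P5, at 212 and 159 FPKM. The channel genes rose in the same libraries as the rod, cone, bipolar and amacrine markers, whose part in this was not tested.

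Postsynaptic genes included receptors for inhibitory and excitatory transmitters. Of 60 tested, 31 rose and 8 fell (23 and 21 as TPM, 39 and 5 with equal protein-coding sums). Their median was 0.78 relative to all genes. Of all tested genes, 25.3% rose and 34.4% fell as deposited, 14.2% and 56.6% as TPM, and 37.4% and 23.2% with equal protein-coding sums. Slc12a5, the chloride extruder KCC2 that makes GABA inhibitory, had 16.6 and 20.0 FPKM at E18 and 182 and 209 FPKM in Adult (log2 difference 3.35, SE 0.17, adjusted p = 3.98e-05), with 53.9 and 40.2 FPKM at P5. Lynx1, a modulator of nicotinic receptors, had 2.27 and 2.47 FPKM at E18 and 67.4 and 53.8 FPKM in Adult, and Dlg1, a scaffold protein, had 5.50 and 5.51 FPKM at E18 and 28.0 and 29.3 FPKM in Adult. These 3 genes rose, and all had Adult values above those of both younger ages.

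Presynaptic genes rose more often than they fell, and related genes went opposite ways. Of 50 tested, 31 rose and 10 fell, and 22 and 17 as TPM. Their median was 0.82 relative to all genes. Of all tested genes, 25.3% rose and 34.4% fell, and as TPM 14.2% and 56.6%. Among the synucleins, vesicle-associated proteins, Sncg had 816 and 908 FPKM at E18 and 86.6 and 37.0 FPKM in Adult, while Sncb had 7.88 and 7.72 FPKM at E18 and 159 and 187 FPKM in Adult. Sncg is also an RGC marker, and its Adult libraries were over 2-fold apart. Stx1a, a syntaxin of the vesicle fusion complex, fell, with 55.9 and 62.1 FPKM at E18 and 8.33 and 8.88 FPKM in Adult. Snap25, its partner in that complex, rose, with 353 and 428 FPKM at E18 and 696 and 727 FPKM in Adult (log2 difference 0.87, adjusted p = 0.00204), though it was not called as TPM (log2 difference 0.25). Cplx2, a complexin and RGC marker, had 46.4 and 50.1 FPKM at E18 and 68.4 and 86.5 FPKM in Adult, and its call was lost as TPM (0.05) and without E18 replicate 1 (0.61). Cplx2 was chosen after its values were seen.

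Ribosomal protein genes fell together. Each of the 78 tested genes of the cytosolic ribosome fell, by log2 differences from -2.71 to -0.83, with a median of -1.61 relative to all genes (-1.67 as TPM, -1.57 with equal protein-coding sums and -1.20 with quantile normalization, where 77 fell). The median level was 312 and 317 FPKM at E18 and 97.1 and 89.3 FPKM in Adult. Rpl7 and Rpl7a, the large-subunit proteins that the series is about, had 476 and 517 FPKM at E18 and 145 and 141 FPKM in Adult (log2 difference -1.79, SE 0.09), and 183 and 186 FPKM at E18 and 48.9 and 48.4 FPKM in Adult (log2 difference -1.90, SE 0.09). Among those with the smallest p were Rpl35, with 277 and 269 FPKM at E18 and 45.8 and 49.1 FPKM in Adult, and Rps19, with 414 and 397 FPKM at E18 and 74.0 and 69.4 FPKM in Adult. Rplp0, of the ribosomal stalk, had 509.9 and 523 FPKM at E18 and 93.4 and 89.7 FPKM in Adult, and Rpl41, the highest of the list, had 992 and 1012 FPKM at E18 and 246 and 205 FPKM in Adult. In each of these 6 genes the Adult libraries lay within 25% of one another. Ribosomal protein genes have many processed pseudogenes that can share their reads.

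Most translation factors fell as well. Of 51 tested, 41 fell and 1 rose (median -0.71 relative to all genes; 30 and 3 with equal protein-coding sums). Eef1a1, the elongation factor that brings transfer RNA to the ribosome, had 2861 and 3146 FPKM at E18 and 631 and 624 FPKM in Adult. Its paralog Eef1a2, the form of mature neurons and muscle, had 44.0 and 43.0 FPKM at E18 and 205 and 219 FPKM in Adult (log2 difference 2.26, SE 0.13, adjusted p = 5.31e-05). Eef1a2 was called higher in every alternative tried, and Eef1a1 remained the higher of the pair in Adult. The translocation factor Eef2 had 892 and 955 FPKM at E18 and 287 and 285 FPKM in Adult, the exchange factor Eef1b2 had 247 and 242 FPKM at E18 and 56.5 and 58.8 FPKM in Adult, and the helicase Eif4a1 had 383 and 386 FPKM at E18 and 99.0 and 94.2 FPKM in Adult.

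More glycolysis genes rose than fell, while of all tested genes 25.3% rose and 34.4% fell (14.2% and 56.6% as TPM). Of 28 glycolysis genes, 18 rose and 5 fell (median 0.69 relative to all genes; 10 and 8 as TPM, 21 and 2 with equal protein-coding sums, and 5 fallen became 2 without E18 replicate 2 and 3 without Adult replicate 1). Aldoc, the aldolase of brain and glia, had 10.5 and 9.72 FPKM at E18 and 318 and 402 FPKM in Adult, and the neuronal enolase Eno2 had 45.5 and 47.2 FPKM at E18 and 286 and 272 FPKM in Adult. Aldoa had 412 and 462 FPKM at E18 and 1442 and 1399 FPKM in Adult, and Pdk2, a brake on pyruvate entry into mitochondria, had 3.92 and 3.30 FPKM at E18 and 24.99 and 26.6 FPKM in Adult. Pkm, pyruvate kinase, had 567 and 562 FPKM at E18 and 871 and 702 FPKM in Adult (log2 difference 0.47), a call that was lost without either E18 replicate or without Adult replicate 1 (0.32 to 0.48) or with the replicate number as a block (0.47), and became -0.15 as TPM.

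Oxidative phosphorylation genes had no direction that held across scalings. Of 75, 30 fell and 4 rose as deposited, 68 and 1 as TPM, and 16 and 24 with equal protein-coding sums; 19 fell without E18 replicate 2. Of all tested genes, 34.4% fell and 25.3% rose as deposited, 56.6% and 14.2% as TPM, and 23.2% and 37.4% with equal protein-coding sums. The counts with equal protein-coding sums lay near those shares and are not read as particular to the list. Relative to all genes the median was -0.18 as deposited and 0.17 with quantile normalization. Ndufa1, a small subunit of complex I, had 252 and 254 FPKM at E18 and 66.8 and 69.7 FPKM in Adult. Sdha, the catalytic subunit of complex II, had 45.3 and 43.2 FPKM at E18 and 102 and 107 FPKM in Adult (log2 difference 1.22). Atp5b and Cox8a, at the highest levels, had 466 and 496 FPKM at E18 and 505 and 455 FPKM in Adult, and 274 and 299.5 FPKM at E18 and 326 and 329 FPKM in Adult, and neither was called, with 95% intervals of -0.28 to 0.27 and -0.10 to 0.48. With equal protein-coding sums, both were called higher (0.36 and 0.56), and as TPM both were called lower (-0.63 and -0.43).

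Most genes of sterol and fatty acid synthesis fell. Of 35 tested, 24 fell and 5 rose (median -0.94 relative to all genes; 29 and 3 as TPM). Hmgcs1, which makes the precursor of cholesterol, had 797 and 972 FPKM at E18 and 104 and 140.5 FPKM in Adult, and Fasn, fatty acid synthase, had 129.9 and 145 FPKM at E18 and 50.6 and 58.9 FPKM in Adult. Both had fallen in part by P5, to 512 and 305 and 68.2 and 76.6 FPKM. Abca1, a cholesterol exporter that does not make lipid, rose, with 0.126 and 0.0396 FPKM at E18 and 4.92 and 7.21 FPKM in Adult.

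Most circadian clock genes rose, and a few fell. Of 22 tested, 14 rose and 3 fell, and 11 and 7 as TPM. Their median was 1.41 relative to all genes. Of all tested genes, 25.3% rose and 34.4% fell, and as TPM 14.2% and 56.6%. Dbp, a transcriptional activator of D-boxes and an output of the clock (chromosome 7, 45705088 to 45710203, plus strand), had 5.83 and 5.601 FPKM at E18 and 134 and 153 FPKM in Adult (log2 difference 4.43, SE 0.11, adjusted p = 7.19e-06). Nfil3, which binds the same sites as a repressor, fell, with 37.3 and 36.3 FPKM at E18 and 7.74 and 8.48 FPKM in Adult (log2 difference -2.05). Per3 had 1.62 and 1.68 FPKM at E18 and 26.7 and 30.6 FPKM in Adult, and Bhlhe41, a repressor in the clock loop, had 1.17 and 0.942 FPKM at E18 and 20.1 and 18.9 FPKM in Adult. Csnk1e, a kinase of period proteins, fell, with 136 and 145 FPKM at E18 and 52.4 and 56.4 FPKM in Adult. The Adult libraries of these 5 genes lay within 25% of one another. The time of day at which the mice were taken is not given.

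Immediate early genes, which report recent stimulation or stress, had no common direction. Of 36 tested, 11 rose and 11 fell (5 and 18 as TPM), near the shares of all tested genes (25.3% higher and 34.4% lower, and 14.2% and 56.6% as TPM). Fos had 80.6 and 80.3 FPKM at E18 and 87.1 and 115 FPKM in Adult and was not called (95% interval -0.04 to 0.66), though it was called higher without Adult replicate 1 (0.51), with equal protein-coding sums (0.67) and with quantile normalization (0.69). Jun had 68.0 and 75.3 FPKM at E18 and 30.7 and 28.8 FPKM in Adult (log2 difference -1.24), with no call when any 1 E18 or Adult library was left out (-1.31 to -1.17). Maff and Klf10 fell, with 10.6 and 11.3 FPKM at E18 and 0.772 and 0.986 FPKM in Adult, and 17.97 and 19.3 FPKM at E18 and 3.51 and 3.96 FPKM in Adult, while Zfp36, which destabilizes mRNA, rose, with 1.40 and 1.42 FPKM at E18 and 6.15 and 6.10 FPKM in Adult. Socs3, an inhibitor of cytokine signaling and of axon regrowth, had 15.6 and 17.3 FPKM at E18 and 4.03 and 3.67 FPKM in Adult, a level already reached at P5 (2.999 and 3.23 FPKM).

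Genes of cell death were more often lower than higher. The same held for all tested genes as deposited (34.4% lower and 25.3% higher) and as TPM (56.6% and 14.2%). Of 45, 22 fell and 8 rose (median -0.31 relative to all genes; 32 and 4 as TPM, 17 and 10 with equal protein-coding sums; 5 rose without E18 replicate 1). The protease Capn2 had 41.7 and 48.0 FPKM at E18 and 10.6 and 11.96 FPKM in Adult (log2 difference -1.90, SE 0.12, adjusted p = 7.09e-05), and at P5 it was still at 54.0 and 49.9 FPKM. Nmnat2, an enzyme that keeps axons alive, had 74.1 and 88.6 FPKM at E18 and 30.9 and 30.5 FPKM in Adult. Bcl2l2, a survival protein of the Bcl2 family, rose, with 16.8 and 17.2 FPKM at E18 and 49.96 and 52.6 FPKM in Adult.

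Counts of cell cycle and progenitor genes depended on single libraries and on the scaling. Of all tested genes, 34.4% fell and 25.3% rose, and as TPM 56.6% and 14.2%. The counts of fallen cell cycle genes as deposited and as TPM lay near those shares and are not read as particular to the list. Of 25 cell cycle genes, 9 fell and 2 rose (13 and 1 as TPM), with a median of -0.72 relative to all genes that became -0.20 without E18 replicate 1 and -1.08 without replicate 2 (16 fallen). The median progenitor marker stood at 8.09 FPKM in E18 replicate 1, 1.55 in E18 replicate 2 and 6.32 and 8.39 FPKM in Adult, with 7 risen and 3 fallen of 23, 12 risen without E18 replicate 1, 7 fallen without E18 replicate 2 and 2 risen with 1 fallen without Adult replicate 1. As TPM, 2 progenitor markers rose and 6 fell. Relative to all genes, the progenitor median was 0.48 as deposited and 0.62 as TPM. Cdkn1c, an inhibitor of cyclin-dependent kinases, had 43.2 and 42.5 FPKM at E18 and 4.74 and 4.41 FPKM in Adult, and Cdk4 had 120.4 and 106 FPKM at E18 and 25.6 and 26.3 FPKM in Adult. Both were even between the E18 libraries. Ccnd3, the cyclin of mature cells, had 4.14 and 3.96 FPKM at E18 and 14.2 and 15.4 FPKM in Adult. Pax6, a retinal regulator kept by RGCs and amacrine cells, had 258 and 240.5 FPKM at E18 and 386 and 462 FPKM in Adult and was not called as TPM (0.14).

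Among chromatin and RNA-binding proteins more members fell than rose. So it was for all tested genes as deposited (34.4% lower and 25.3% higher) and as TPM (56.6% and 14.2%). Of 61 chromatin genes, 32 fell and 9 rose (median -0.36 relative to all genes; 47 and 5 as TPM, 23 and 12 with equal protein-coding sums). Hmgb3, a DNA-bending protein of immature cells, had 96.9 and 105.4 FPKM at E18 and 6.23 and 5.16 FPKM in Adult, the deacetylase Hdac2 had 138 and 153 FPKM at E18 and 36.1 and 35.1 FPKM in Adult, and the replacement histone gene H3f3a had 632 and 654 FPKM at E18 and 216 and 186 FPKM in Adult. Of 42 splicing regulators, 24 fell and 6 rose (16 and 11 with equal protein-coding sums, 17 and 9 with quantile normalization). The neuronal RNA-binding proteins Elavl2 and Elavl4 had 44.6 and 49.4 FPKM at E18 and 10.1 and 7.97 FPKM in Adult, and 113 and 134 FPKM at E18 and 22.2 and 27.9 FPKM in Adult. Mbnl2, a splicing factor of mature tissue, rose, with 12.8 and 12.8 FPKM at E18 and 65.3 and 48.2 FPKM in Adult, and Hnrnpa1 fell, with 228 and 207 FPKM at E18 and 80.1 and 70.9 FPKM in Adult.

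Motor genes were mostly lower, with a pair of paralogs in opposite directions. Of 51 kinesin, dynein and myosin genes, 30 fell and 6 rose (median -0.48 relative to all genes; 22 and 12 with equal protein-coding sums, 38 and 2 as TPM). The dynein intermediate chain Dync1i2 had 158 and 177 FPKM at E18 and 38.5 and 31.6 FPKM in Adult, while Dync1i1 had 1.42 and 1.45 FPKM at E18 and 43.8 and 39.4 FPKM in Adult (log2 difference 4.13, SE 0.21, adjusted p = 3.98e-05). At P5, Dync1i1 was at 19.1 and 12 FPKM, already above E18. The light chain gene Dynlt1a had 25.9 and 27.6 FPKM at E18 and 1.61 and 2.58 FPKM in Adult. Klc1 and Kif5c, the light and heavy chains of the kinesin of axonal transport, had 443 and 493 FPKM at E18 and 197 and 220.5 FPKM in Adult, and 281 and 312 FPKM at E18 and 104.6 and 124 FPKM in Adult.

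Lysosome, antigen presentation and protein quality genes went in different directions. Of all tested genes, 25.3% rose and 34.4% fell as deposited, 14.2% and 56.6% as TPM, and 37.4% and 23.2% with equal protein-coding sums. Of 53 lysosome and autophagy genes, 25 rose and 11 fell (13 and 25 as TPM, 36 and 8 with equal protein-coding sums; median 0.43 relative to all genes as deposited and 0.39 as TPM). The lysosomal protease Tpp1 had 2.39 and 1.75 FPKM at E18 and 33.2 and 29.5 FPKM in Adult, the proton pump subunit Atp6v1g2 had 13.8 and 15.04 FPKM at E18 and 76.7 and 84.0 FPKM in Adult, and Psap, the precursor of saposins, had 148 and 159.8 FPKM at E18 and 326 and 345 FPKM in Adult. Of 19 genes of MHC class I and interferon response, 12 rose and 3 fell (6 and 6 as TPM; 5 rose without E18 replicate 1 and 7 without E18 replicate 2). H2-K1, a class I heavy chain, had 0.724 and 0.418 FPKM at E18 and 13.5 and 15.8 FPKM in Adult, Ifit3 had 0.0429 and 0.0346 FPKM at E18 and 3.04 and 3.52 FPKM in Adult, and Ifitm2 fell, with 14.9 and 20.3 FPKM at E18 and 0.370 and 0.588 FPKM in Adult. Of 61 chaperone and proteasome genes, 42 fell and 5 rose (25 and 7 with equal protein-coding sums, 54 and 2 as TPM; 3 rose without E18 replicate 1, and 2 without E18 replicate 2 or Adult replicate 1). The chaperonin subunit Cct2 had 152 and 164 FPKM at E18 and 55.9 and 51.3 FPKM in Adult, Hspa8 had 1029 and 1162 FPKM at E18 and 631 and 531 FPKM in Adult, and Uchl1, a ubiquitin hydrolase of neurons, had 980.5 and 1007 FPKM at E18 and 244 and 232 FPKM in Adult, while the small heat shock gene Cryab rose, with 0.0757 and 0.0683 FPKM at E18 and 12.1 and 13.3 FPKM in Adult.

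Iron, redox, imprinted and matrix genes had members called in both directions, as did all tested genes (25.3% higher and 34.4% lower), and the counts of these lists are not read as particular to them. Of 40 antioxidant and metal genes, 13 rose and 14 fell (9 and 24 as TPM, 18 and 11 with equal protein-coding sums). Ftl1, the ferritin light chain, had 951 and 946 FPKM at E18 and 182 and 198 FPKM in Adult, and Gsta4, a glutathione transferase, had 0.534 and 0.0931 FPKM at E18 and 17.3 and 20.7 FPKM in Adult. Of 31 imprinted genes, 15 fell and 9 rose (20 and 5 as TPM, 12 and 12 with equal protein-coding sums). Beside Nnat, Impact, a regulator of translation control, rose, with 12.9 and 13.2 FPKM at E18 and 169 and 191 FPKM in Adult, and Gnas, the stimulatory G protein subunit, fell, with 712 and 768 FPKM at E18 and 433 and 454 FPKM in Adult. Of 30 matrix genes, 13 fell and 11 rose. The proteoglycans Gpc2 and Ncan had 148 and 172 FPKM at E18 and 5.33 and 4.604 FPKM in Adult, and 40.5 and 45.4 FPKM at E18 and 2.55 and 3.32 FPKM in Adult. Sparcl1, which promotes synapses, rose, with 7.38 and 5.89 FPKM at E18 and 152 and 147 FPKM in Adult, and Reln, the secreted guide of neuronal layering, fell, with 289 and 359 FPKM at E18 and 40.0 and 48.8 FPKM in Adult.

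A further set of genes had left the E18 level at P5 and lay near it again in Adult. A gene was counted here when it was called between P5 and E18 and between Adult and P5 in opposite directions, was not called between Adult and E18, and had an absolute log2 difference of Adult and E18 under 0.5. P5 and E18 differed in 1507 genes (10.5%) and Adult and P5 in 8610 (59.8%). These comparisons share libraries, and the rule fixes the pattern, so the values are a description. It held for 312 genes, 174 higher and 138 lower at P5. The count rests on the scaling and on single libraries. As TPM it was 336 and 58. Without E18 replicate 1 it was 2 and 3, without E18 replicate 2 it was 7 and 14, without P5 library a it was 3 and 1, and without P5 library b 69 and 35. Without Adult replicates 1 and 2 it was 72 and 47, and 73 and 44.

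Among genes higher at P5 were cell surface and calcium signaling genes. Where a gene has 3 pairs of values, they are those of E18, P5 and Adult in that order. Cntn1, an adhesion molecule of axons, reached 191 and 144 FPKM at P5 from 38.3 and 48.5 FPKM at E18, and Adult libraries had 31.9 and 28.6 FPKM. It lay just inside the limit (log2 difference -0.50 between Adult and E18). Pcp4, a calmodulin regulator, reached 518 and 354 FPKM at P5 from 96.5 and 145 FPKM, with 140.1 and 166 FPKM in Adult, and the kinase Camk4 had 6.21 and 6.83, 26.8 and 27.3 and 7.29 and 8.91 FPKM. Ctxn3, a membrane protein of neurons, had 1.39 and 0.765, 15.3 and 10.5 and 2.77 and 1.17 FPKM. Eomes, a transcription factor of melanopsin RGCs and other types, had 6.06 and 2.65, 15.5 and 15.3 and 2.76 and 2.45 FPKM, and without E18 replicate 2 its Adult value was called lower (-0.97). For each of these genes both P5 libraries were above all others. Tspan2, Ptgfrn and Slc35f4 followed, with P5 levels of 25.7 and 18.6, 13.3 and 13.9 and 18.6 and 16.6 FPKM.

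Genes lower at P5 included growth factor genes and replication-dependent histones. Vegfa, the growth factor of blood vessels, had 18.4 and 18.5 FPKM at P5, below the 62.4 and 73.1 FPKM of E18 and the 57.9 and 68.0 FPKM of Adult. Ngfr, the p75 receptor of neurotrophins, had 16.8 and 20.3, 5.87 and 5.41 and 16.0 and 18.8 FPKM, and Igfbp2, an insulin-like growth factor binding protein, had 43.2 and 37.2, 10.4 and 9.67 and 42.5 and 65.0 FPKM. In Vegfa and Ngfr the E18 and Adult ranges overlapped. Of the 8 genes with the largest falls at P5, 5 were histone genes of the Hist1 cluster. Hist1h2bb had 91.3 and 29.3, 9.85 and 9.54 and 53.6 and 49.2 FPKM, and Hist1h1a, a linker histone, had 85.5 and 48.8, 15.9 and 12.1 and 53.2 and 64.3 FPKM. In each of the 5 (Hist1h3a, Hist1h2bf and Hist1h4j with them), E18 replicate 1 was the higher, the library that was also higher in progenitor markers. Without E18 replicate 1, Adult was called higher than E18 in Hist1h2bb (0.79) and Hist1h2bf (0.72), and without E18 replicate 2 it was called lower in Hist1h2bb (-0.82) and Hist1h3a (-0.65). Mature histone mRNA of this kind has no polyA tail, and the libraries were made from polyA RNA.

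**Figure D4:**
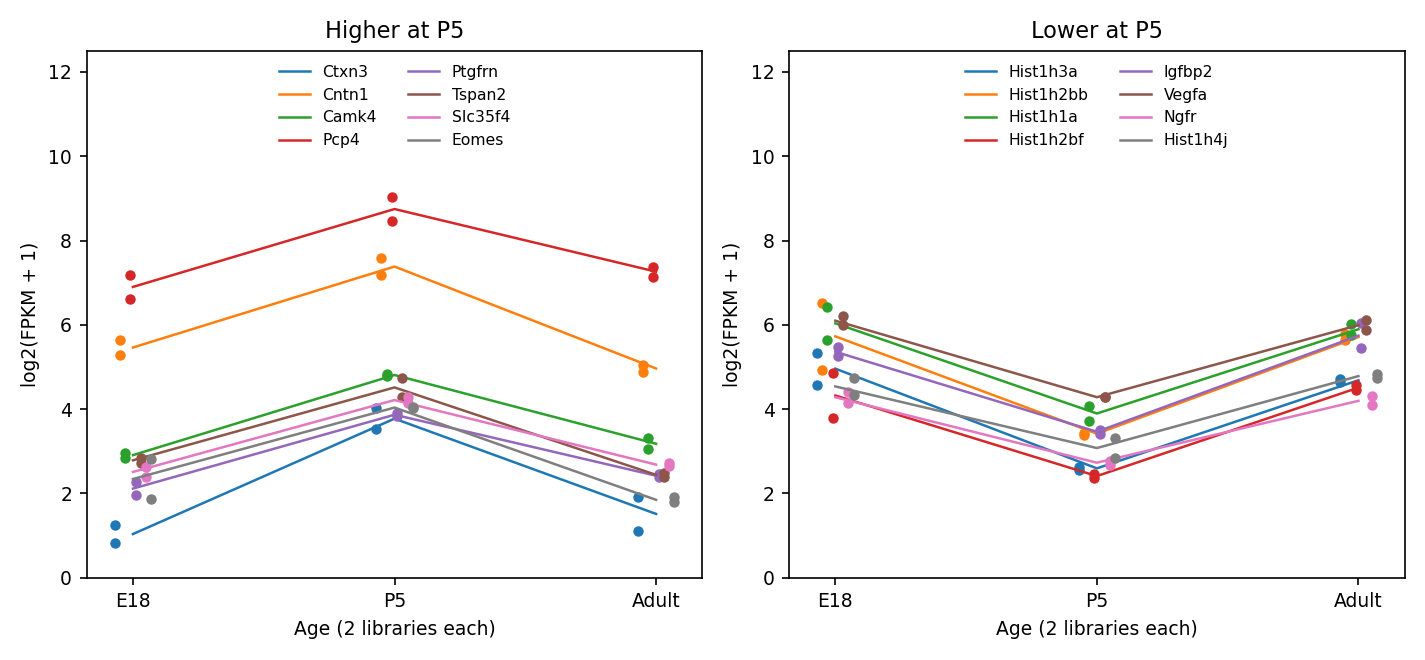
Levels of the named genes that return to the E18 level, as log2(FPKM + 1) in each library (points) with lines through the mean of each age. In each gene, both P5 points lie on one side of the E18 and Adult points.

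In some genes isoforms moved in opposite directions. Of 34941 tested isoforms, 15611 differed between Adult and E18 (44.7%), 6241 higher (17.9%) and 9370 lower (26.8%). As TPM 3621 were higher and 15629 lower, without E18 replicate 1 it was 3409 and 5088, and without E18 replicate 2 it was 3213 and 4630. In 937 of the 7545 genes with at least 2 tested isoforms, 1 isoform was called higher and another lower, and 427 of these genes were not called as a sum. The 937 became 755 as TPM, 255 with a filter at a mean of 5 FPKM, 374 without E18 replicate 1 and 327 without E18 replicate 2. Limited to annotated isoforms with at least 5 FPKM in the higher group, 343 genes had such a pair, of which 204 had different listed start sites. Both isoforms were protein coding in 202 of the 343. Of 333 pairs of distinct annotated transcripts, the coding bases differed in 275 and the form higher in Adult was the longer in 181. The 275 include pairs in which 1 form has no annotated coding bases, so they are not all changes of protein. Lengths, coding bases, codons and distances between start sites are those of the annotated transcripts. Some deposited isoform lengths differ from the annotated transcript of the same name. Isoform levels are estimates that divide shared reads, and a value listed at 0 may be a failed estimate, so no fold is given for those.

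Rtn4, the gene of the reticulon and growth inhibitor Nogo, ranked highest among the pairs. Its isoform Rtn4-203 had 102 and 115 FPKM at E18 and 2.92 and 4.86 FPKM in Adult (log2 difference -4.51). Rtn4-201 went the other way, with 0.853 and 0.384 FPKM at E18 and 60.9 and 44.6 FPKM in Adult (log2 difference 5.05). Rtn4-203 holds 1046 codons and Rtn4-201 holds 199, and their annotated start sites on chromosome 11 lie 24789 bases apart. Rtn4-203 made up 47.9% of the FPKM of the gene at E18 and 2.37% in Adult, against 0.274% and 32.2% for Rtn4-201. The sum over the gene was called lower, with means of 226 FPKM at E18 and 164 FPKM in Adult.

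Ncam1, a neural adhesion molecule, had a similar pair with start sites 35 bases apart. Ncam1-204, with 848 codons, had 69.1 and 82.8 FPKM at E18 and 3.76 and 6.64 FPKM in Adult, and Ncam1-201, with 725, had 0.631 and 0.247 and 19.6 and 15.8 FPKM. The former made up 40.3% of the gene at E18 and 6.16% in Adult. In Camk2d, a calcium/calmodulin kinase, Camk2d-203 was listed at 0 in both E18 libraries and had 18.5 and 20.4 FPKM in Adult, while Camk2d-202 had 27.4 and 29.6 FPKM at E18 and was listed at 0 and had 0.513 FPKM in Adult replicates 1 and 2. The gene as a sum was not called (131 and 112 FPKM).

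Cytoskeletal and synaptic genes had further pairs. Clasp2, a microtubule plus-end protein, had 84.6 and 96.0 FPKM of Clasp2-207 at E18 and 6.18 and 7.68 FPKM in Adult, and Clasp2-201, which lacks 54 of those coding bases, was listed at 0 at E18 and had 13.3 and 5.03 FPKM in Adult. The active zone protein gene Ppfia3 had 16.4 and 16.1 FPKM as a sum, with 11.9 and 13.4 FPKM of Ppfia3-207 at E18 and 9.78 and 10.8 FPKM of Ppfia3-201 in Adult. Epb41l1, a membrane skeleton gene, used start sites 54433 bases apart for forms with the same coding bases, with 18.4 and 22.7 FPKM of Epb41l1-202 at E18 and 17.5 and 20.4 FPKM of Epb41l1-201 in Adult. Whether RNA of other cell types carries the Adult forms was not tested.

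**Figure D5:**
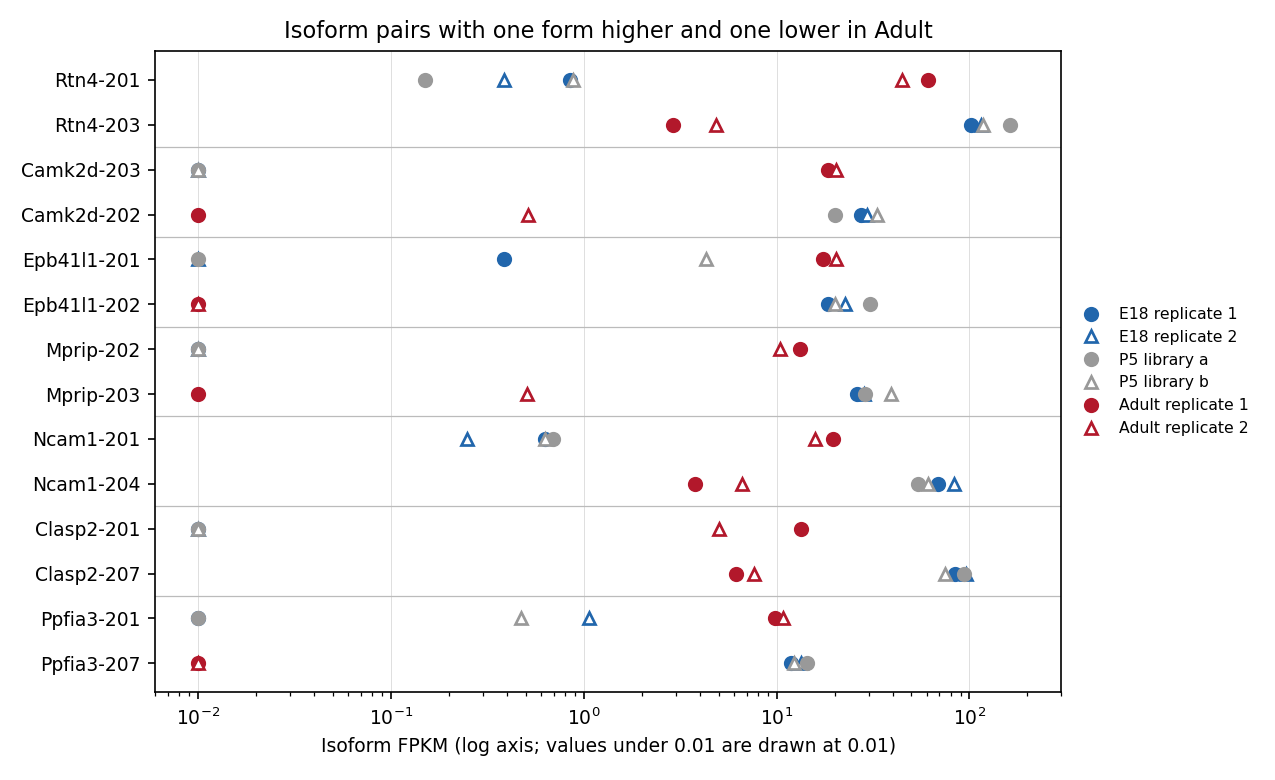
Levels of 7 pairs of annotated isoforms in each library, in FPKM on a log axis, with values under 0.01 drawn at 0.01. In each pair the form that is high at E18 is low in Adult and the other is the reverse, and P5 points lie near those of E18 in most forms.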

How the data were processed

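RNA of 6 libraries, 2 each of E18, P5 and Adult, was sequenced from polyA-selected RNA. Per the submitters' processing notes, reads were processed with HISAT2, Cufflinks and Cuffdiff on mm10; versions and options are not given in the sources used here. The authors deposited FPKM per isoform, with 0.0001 in place of 0. All 50829 isoforms reach at least 1.00 FPKM in a library, so low isoforms are missing from gene sums. Without counts, depth and counting error are unknown and precision rests on 2 libraries per age. The 10 other numeric columns were not used. The P5 columns carry no replicate number and are called libraries a and b.

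Isoform FPKM were summed per symbol. Symbols were matched to GENCODE M21 (GRCm38) through transcript identifiers, 17015 of 17027. Genes with a mean of at least 1 FPKM over the 6 libraries were tested as log2(FPKM + 1) with limma 3.58.1 (R 4.3.3; all 6 libraries, trended variance, Benjamini-Hochberg) and called at an adjusted p under 0.05. A fold on this scale understates changes of low genes. FPKM scale to each library's total, so a shift in RNA make-up moves all levels. The fit was tested on simulated data. Named genes were the 15 largest rises and falls that reach 10 FPKM, the 12 largest rises with Adult libraries within 25% of each other, the 4 smallest p and 2 highest levels of each list, the 8 largest returning genes in each direction and the 12 top isoform pairs, in part; some of these genes are not reported here. The members and lists were chosen with earlier results of these data known. Alternatives were the pseudocount, the filter, TPM, protein-coding and quantile scaling, no variance trend, the 4 libraries alone, a replicate block and leaving out each library.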

Additional observations from a re-analysis of the deposited data

How the results depend on the processing

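As TPM, 2047 genes were called higher and 8138 lower, and 3621 isoforms higher and 15629 lower. With a filter at a mean of 5 FPKM, 2330 genes were higher, and 2368 isoforms higher and 5339 lower. Leaving out 1 library gave 2545 to 3672 genes higher, 3593 to 5110 lower, 3213 to 5968 isoforms higher and 4630 to 9046 lower; fewer libraries leave fewer degrees of freedom, and an age with 1 library is assumed to vary like the others. Genes that returned from a higher P5 level numbered 336 as TPM, 109 with a limit of 0.25 on the log2 difference and 2 to 73 without 1 library; those from a lower P5 level numbered 58 as TPM and 1 to 47 without 1 library. Pkm reversed as TPM (-0.15). The cause of these differences was not tested. Same-numbered E18 and Adult libraries did not deviate together over genes (r = 0.018). With 2 libraries per age, this cannot decide whether the numbers pair them. With the replicate number as a block, 3365 genes were higher and 4691 lower, and 4928 isoforms higher and 7536 lower. Depth is unknown, so it cannot be said which low levels counting error limits.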
